A study of Mus musculus with 12 samples.

Results

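The genes described here encode the proteins of the mitochondrial ribosome. They were chosen by symbol, as every gene whose name starts with Mrpl or Mrps and a digit, with their difference between MI and sham ventricles already known. That rule found 78 of the 18050 genes listed. Of these, 51 encode proteins of the large subunit and 26 proteins of the small subunit. Mrps36, the remaining gene, carries a ribosomal name but encodes a component of the 2-oxoglutarate dehydrogenase complex. Mrps30 and Mrps18a are counted with the large subunit, where structures of the mammalian ribosome place their proteins.

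RNA was sequenced from the left ventricle of wild-type mice 7 days after MI, read here as myocardial infarction, or 7 days after a sham operation. There were 6 MI and 6 sham libraries, numbered 1 to 6 in each group. The submitters' processing notes differ between replicates 3 to 6 and replicates 1 and 2, which are treated as separate sets of 4 and 2 libraries per group. Strain, age and sex were not given, and the labels do not say that each library came from its own animal. A p-value here thus reflects how far the libraries lie apart, and that spread may be technical.

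Mitochondria keep a small genome of their own, and its messenger RNAs encode core subunits of the respiratory chain and of ATP synthase. A dedicated ribosome inside the organelle translates them. Its RNAs are made from mitochondrial DNA, whereas its proteins are encoded in the nucleus, made in the cytosol and imported. Some of these proteins have kin in bacterial ribosomes and others are found only in mitochondrial ones. The heart muscle cell is rich in mitochondria, and human variants in several of these genes cause cardiomyopathy.

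Totals of the expected counts ran from 14168412 to 18602226 per MI library and from 9140353 to 16066681 per sham library, and each member had between 156 and 6746 counts in every library. Replicates 3 to 6 lay close together. The median coefficient of variation over members was 4.13% in MI and 3.76% in sham replicates 3 to 6, and 5.81% in MI and 3.97% in sham replicates 1 and 2. The adult beta-globin genes differed by set as well. Hbb-bs and Hbb-bt, 2 of the 4 listed copies, held 0.115% of beta-globin counts in MI replicates 3 to 6 but 99.95% in sham replicates 3 to 6, and 100% in both groups of replicates 1 and 2. Lung epithelial markers also stood apart: the 7 listed markers summed to between 179.9 and 183 CPM in MI replicates 3 to 6, against 1.07 to 2.38 CPM in sham replicates 3 to 6. In replicates 1 and 2 they summed to 15.5 and 28.2 CPM in MI libraries, against 0.990 and 1.11 CPM in sham libraries. Sftpa1, Sftpc and Sftpd, which encode surfactant proteins, were at 0 in both MI libraries of replicates 1 and 2, so levels are given by set. A fold change or median with no set named is over 12 libraries. Mouse strains are known to differ in which of these beta-globin copies they carry, and the strain of each group is not given. In replicates 3 to 6 a difference of strain therefore cannot be told apart from MI in any value given here, whereas in replicates 1 and 2 the globin copies of the groups were the same.

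Many of these genes start close to another gene that runs the opposite way, and the stretches between such starts are shown because the neighbours did not all follow the members. In 23 of 78 members (29.5%) a protein-coding gene on the other strand started within 1000 bases upstream or overlapped the start by up to 200 bases. That arrangement held for 1486 of 13444 located genes (11.1%). The stretches below run 5′ to 3′ on the member's strand up to its annotated start, from RefSeq on GRCm38.p6. Capitals mark an ETS core (CCGGAAG or its reverse, CTTCCGG) or a GC box (GGGCGG or its reverse, CCGCCC). For Mrps27 and Mrps12 both genes were lower after MI, and for Mrpl30 and Mrpl57 the member was lower and its neighbour higher. The capitals cover only the printed bases, whereas the motif shares given further below use longer windows around each start. Beyond the printed bases, the window of Mrpl57 held an ETS core and a GC box, and that of Mrps12 an ETS core.
Mrps27 and Ptcd2, chr13:99344679-99344785, plus strand: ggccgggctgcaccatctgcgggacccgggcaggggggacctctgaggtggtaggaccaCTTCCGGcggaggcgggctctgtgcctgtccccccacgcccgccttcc
Mrps12 and Sars2, chr7:28741822-28741967, minus strand: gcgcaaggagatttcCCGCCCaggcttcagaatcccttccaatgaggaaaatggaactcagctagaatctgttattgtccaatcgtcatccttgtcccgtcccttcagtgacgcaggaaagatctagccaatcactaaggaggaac
Mrpl30 and Mitd1, chr1:37890412-37890476, plus strand: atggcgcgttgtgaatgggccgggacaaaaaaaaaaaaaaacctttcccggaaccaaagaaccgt
Mrpl57 and Ska3, chr14:57826164-57826238, plus strand: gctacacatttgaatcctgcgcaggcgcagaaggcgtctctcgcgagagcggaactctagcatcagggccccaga

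The next 2 stretches are the 150 bases before the starts of Mrpl55 and Mrpl52, the members with the lowest and the highest fold change, with the same motifs in capitals. Mrpl55 holds GC boxes but no ETS core, whereas Mrpl52 holds an ETS core 47 bases before its start.
Mrpl55, chr11:59202336-59202485, plus strand: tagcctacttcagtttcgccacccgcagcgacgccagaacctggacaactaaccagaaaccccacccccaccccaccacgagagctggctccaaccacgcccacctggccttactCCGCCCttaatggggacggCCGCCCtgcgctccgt
Mrpl52, chr14:54426759-54426908, plus strand: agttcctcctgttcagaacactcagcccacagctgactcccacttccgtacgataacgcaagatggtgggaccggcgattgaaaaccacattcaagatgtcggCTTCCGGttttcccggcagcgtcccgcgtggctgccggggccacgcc

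Transcripts of the mitochondrial ribosome were lower after MI in both sets. Levels here are TMM-scaled CPM. Summed over the 78 members, they came to 3847 ± 33.1 CPM in MI replicates 3 to 6 and 9173 ± 93.5 CPM in sham replicates 3 to 6 (SD, n = 4 each). The sum in replicates 1 and 2 was 1988 ± 22.8 CPM in MI and 7115 ± 279 CPM in sham (SD, n = 2 each). As a share of all counts, members held 0.441% of MI and 0.802% of sham counts in replicates 3 to 6, and 0.227% of MI and 0.599% of sham counts in replicates 1 and 2. The groups did not overlap in either set. In a piece of ventricle, fewer cells of a type and less RNA per cell cannot be told apart.

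Gene by gene, the median log2 fold change of MI over sham was -1.34 over 12 libraries, with quartiles of -1.59 and -1.05. The median over all tested genes was 0.01. The values ran from -2.41 for Mrpl55 to -0.45 for Mrpl52, and 61 members were at least 2-fold lower in MI, as were 16.3% of all tested genes. These values come from the contrast that chose the members and are given as a description. A gene was called when edgeR's quasi-likelihood test gave a Benjamini-Hochberg adjusted p under 0.05 both over 12 libraries and with replicates 3 to 6 of each group summed, 3 against 3. By that rule 78 of 78 members were lower and 0 higher, where 29.8% of all tested genes were called lower and 28.1% higher. The 12-library test by itself called 38.0% of genes lower. In 78 of 78 members all MI libraries lay below all sham libraries within each set, as in 31.3% of all genes, and in 69 of 78 (88.5%) all 6 MI libraries lay below all 6 sham libraries, as in 21.3%. The other 9 (Mrps33, Mrpl47, Mrpl32, Mrps14, Mrps18c, Mrps17, Mrpl33, Mrpl20 and Mrpl52) had groups that overlapped once the sets were pooled.

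**Figure D1:**
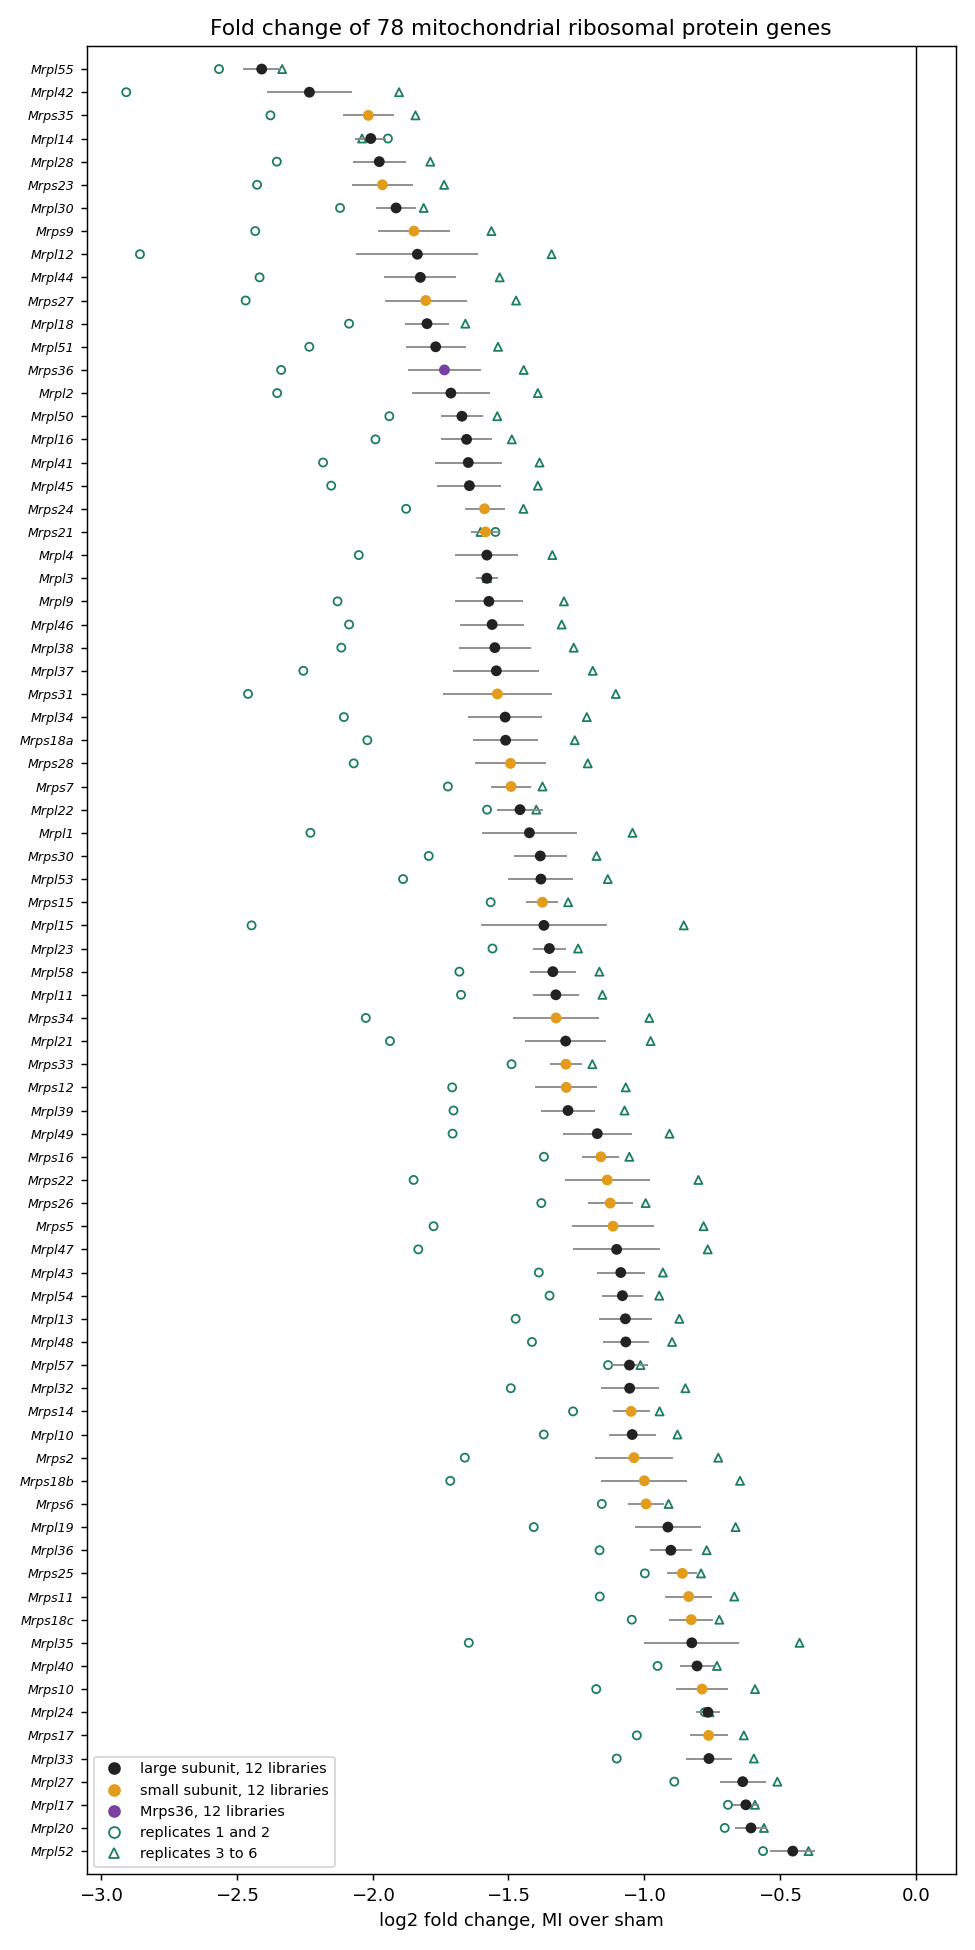
Log2 fold change of MI over sham for each of the 78 members, ordered by the value over 12 libraries (filled points, with bars of ± 1 standard error); open circles are replicates 1 and 2 and open triangles replicates 3 to 6. Every point lies below 0, from -2.41 for Mrpl55 to -0.45 for Mrpl52 over 12 libraries.

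Mrpl42, a large-subunit protein found only in mitochondrial ribosomes, had the highest mean level per length of all members in each group. Its mean over the 6 libraries was 289.8 FPKM (a level per length of transcript) in MI and 904 FPKM in sham. In MI replicates 1 and 2 alone it was at 84.8 and 88.3 FPKM, below Mrps21 (98.6 and 92.3) and Mrpl52 (95.4 and 100.6). Mrpl42 stood at 213, 209, 206 and 218 CPM in MI replicates 3 to 6, against 789.7, 774, 797 and 804 CPM in sham replicates 3 to 6. Replicates 1 and 2 had it at 47.0 and 47.6 CPM in MI, against 353 and 357 CPM in sham. Every MI library was below every sham library, although MI replicates 3 to 6 lay well above MI replicates 1 and 2. The log2 fold change was -2.23 (SE 0.16). Mrpl55, a large-subunit protein with bacterial kin, was at 24.6, 27.4, 27.5 and 27.6 CPM in MI replicates 3 to 6, against 143, 129, 138 and 131 CPM in sham. It was at 13.1 and 11.0 CPM in MI and at 67.9 and 74.9 CPM in sham replicates 1 and 2, and its fold changes in the sets lay close together, at -2.33 and -2.57.

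**Figure D2:**
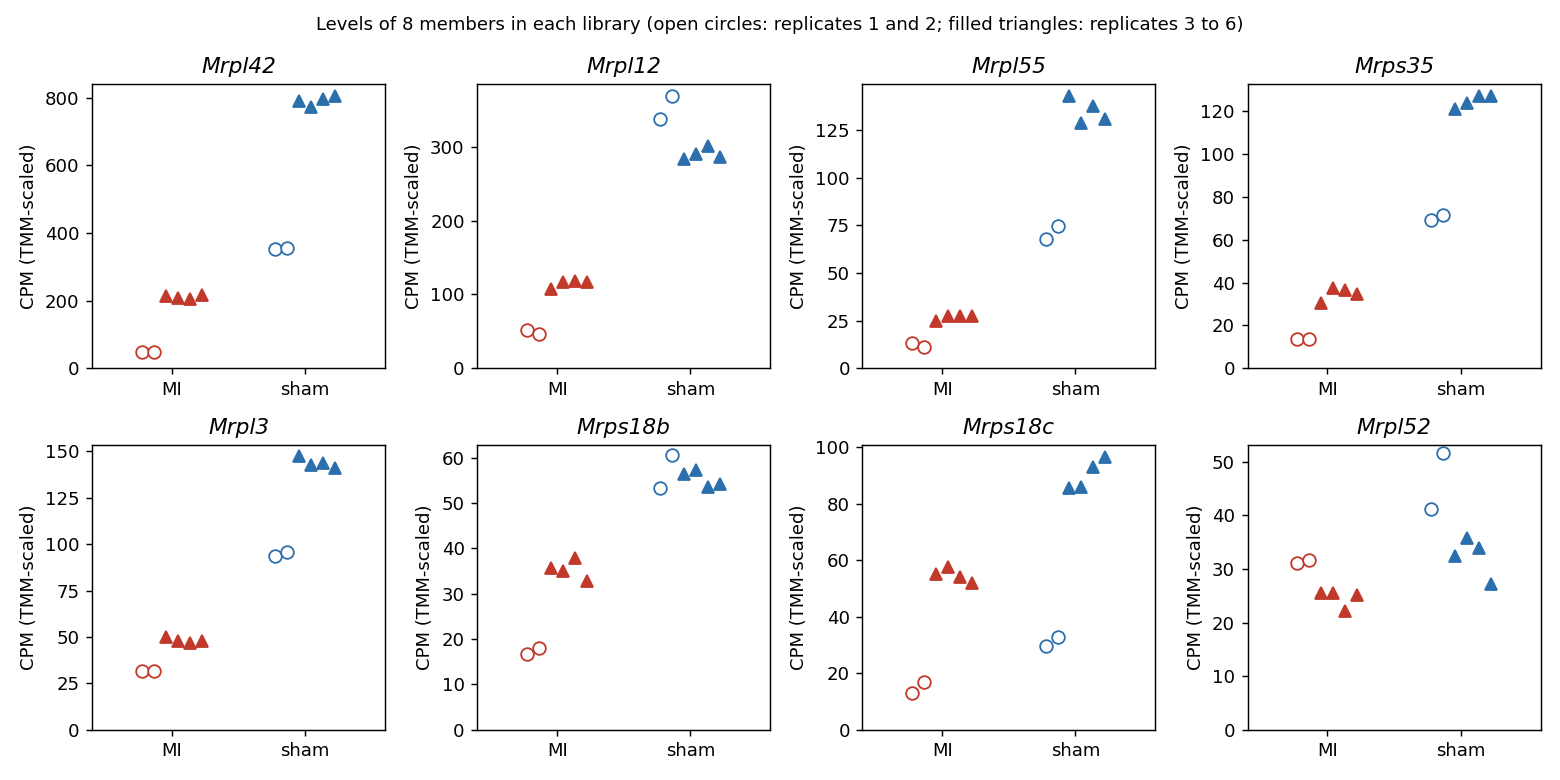
CPM (TMM-scaled) of 8 members in each of the 6 MI libraries (left in each panel) and 6 sham libraries (right); open circles are replicates 1 and 2, filled triangles replicates 3 to 6. MI libraries lie below sham libraries of their own set in all 8 panels, and for Mrps18c and Mrpl52 the groups overlap once the sets are pooled.

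The other members with strongly negative values came from both subunits. Mrps35 (log2 fold change -2.02, SE 0.09) and Mrps23 (-1.96, SE 0.11) are small-subunit proteins found only in mitochondria. In the sets Mrps35 was at -1.84 in replicates 3 to 6 and -2.38 in replicates 1 and 2, and Mrps23 was at -1.74 and -2.42. Mrpl14 (-2.01, SE 0.06) lies at the face where the subunits join, and Mrpl28 (-1.98, SE 0.10) is a large-subunit protein with bacterial kin. Mrpl14 was the steadiest of them across sets. It was at 24.3, 24.6, 26.2 and 27.6 CPM in MI replicates 3 to 6, against 104, 106, 113 and 99.3 CPM in sham, and at 26.0 and 28.0 CPM in MI replicates 1 and 2, against 98.7 and 109 CPM in sham. Antisense exons of Tmem63b cover 11.2% of its exonic bases, and no source used here says whether reads were counted by strand.

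At the other end were large-subunit proteins with bacterial kin such as Mrpl20 (-0.61, SE 0.06), Mrpl17 (-0.63, SE 0.05), Mrpl27 (-0.64, SE 0.08), which sits near the site of peptide-bond formation, and Mrpl33 (-0.76, SE 0.09). Mrps17 (-0.76, SE 0.07) had the least negative value of the small subunit. Mrpl52 was at 25.5, 25.5, 22.2 and 25.1 CPM in MI replicates 3 to 6, against 32.4, 35.8, 33.9 and 27.2 CPM in sham. Replicates 1 and 2 had it at 31.1 and 31.7 CPM in MI, against 41.1 and 51.7 CPM in sham. The groups were apart within each set, though only just in replicates 3 to 6, and its log2 fold change was -0.45 (SE 0.08). When libraries were scaled by their totals alone, which moves the median of all genes up by 0.41, Mrpl52 was at -0.04, and Mrpl27, Mrpl17, Mrpl20 and Mrpl52 were no longer called.

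Levels per length varied widely among members. Member means ran from 5.81 FPKM for Mrpl19 to 289.8 FPKM for Mrpl42 in MI, and from 8.08 to 904 FPKM for the same genes in sham. The median was 33.3 FPKM in MI and 67.2 FPKM in sham. After Mrpl42, the highest in sham were Mrpl30, Mrps21, Mrpl33, Mrpl12, Mrpl18, Mrps36, Mrpl28, Mrpl53 and Mrps23, from 166 to 444 FPKM. The order of members was much the same in both groups, with r = 0.94 and rho = 0.92 across 78 genes on the log2 scale, which share libraries and gene lengths and are not independent. Members with more transcript per length in sham tended to have the lower fold change (r = -0.47, rho = -0.41, n = 78), a relation in which the sham value enters both axes.

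Values by place in the ribosome were compared with no test. The large subunit had a median log2 fold change of -1.38 (51 genes) and the small subunit -1.22 (26 genes). These were -1.17 and -1.02 in replicates 3 to 6, and -1.83 and -1.68 in replicates 1 and 2. In the large subunit the median was -1.36 for 30 proteins that bacterial large subunits also hold and -1.38 for 21 others. Mrps18a, an S18 paralogue placed in the large subunit, is counted with the 21. In the small subunit it was -1.12 for 17 with bacterial kin, Mrps18b and Mrps18c among them, and -1.32 for 9 found only in mitochondria. The summed large-subunit CPM stood at 2.30 to 2.38 times the small-subunit CPM in MI libraries and at 2.47 to 2.69 times in sham libraries, and these ranges did not overlap. Sums follow the genes with the highest levels. Mrpl42 alone held 774 to 804 of 6388 to 6513 large-subunit CPM in sham replicates 3 to 6. In MI replicates 3 to 6 it held 206 to 218 of 2620 to 2696 CPM. The gap between the ranges is thus not shown to be one of the subunit as a whole.

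The stalk of the large subunit, where translation factors dock, is represented by 5 genes with a median of -1.33. Mrpl12, which forms the flexible part of the stalk, was at 107, 116, 118 and 117 CPM in MI replicates 3 to 6, against 283, 290.3, 301 and 287 CPM in sham. Its level in replicates 1 and 2 was 51.3 and 46.3 CPM in MI and 337 and 369 CPM in sham. The MI libraries were low throughout, but most so in replicates 1 and 2, where the log2 fold change was -2.86, against -1.34 in replicates 3 to 6. Mrpl10, the protein that carries Mrpl12, was at -1.04 (SE 0.09), Mrpl11 at the stalk base at -1.33 (SE 0.09), and Mrpl53 and Mrpl54 near it at -1.38 (SE 0.12) and -1.08 (SE 0.08). Exons of other genes cover 13.1% of Mrpl12 and 14.1% of Mrpl10 on the other strand and 88.0% of Mrpl53 on the same strand, so counts of Mrpl53 in particular are uncertain. Among all 78 members, 18 had more than 10% of their exonic bases covered in this way. Mrps34 had 77.8% covered, counting both strands, and Mrps25 69.8%, on the other strand.

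The mammalian mitochondrial ribosome has 3 paralogues of bacterial S18. Mrps18c, the one in the place of the bacterial protein, was at 55.2, 57.4, 53.9 and 51.9 CPM in MI replicates 3 to 6, against 85.7, 85.8, 92.9 and 96.5 CPM in sham. It was at 13.1 and 17.0 CPM in MI replicates 1 and 2, against 29.5 and 32.7 CPM in sham. Mrps18b, elsewhere in the small subunit, was at 35.6, 35.1, 37.8 and 32.7 CPM in MI replicates 3 to 6, against 56.3, 57.2, 53.4 and 54.2 CPM in sham, and at 16.6 and 18.1 CPM in MI replicates 1 and 2, against 53.3 and 60.6 CPM in sham. Mrps18a, in the large subunit, had the most negative value of the 3, with -1.51 (SE 0.12), next to -0.83 (SE 0.08) for Mrps18c. Mrps18b was at -0.65 in replicates 3 to 6 and -1.71 in replicates 1 and 2. MI was below sham within each set for all 3. Exons of other genes cover 30.5% of Mrps18b on the other strand and 23.2% of Mrps18c on the same strand.

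Human variants in MRPL3, MRPL44, MRPS22 and MRPS14 have been linked to cardiomyopathy, and their mouse genes had a median of -1.36. Mrpl3, which lies near the catalytic centre, was at 49.9, 48.0, 46.9 and 47.6 CPM in MI replicates 3 to 6, against 148, 143, 144 and 141 CPM in sham. It was at 31.8 and 31.7 CPM in MI replicates 1 and 2 and at 93.7 and 96.0 CPM in sham. Its log2 fold change was -1.58 in both sets. Mrpl44, a protein of ribonuclease descent in the large subunit, was at 28.7, 30.8, 30.5 and 31.9 CPM in MI replicates 3 to 6, against 91.1, 88.7, 87.7 and 85.3 CPM in sham, and at 16.4 and 17.2 CPM in MI replicates 1 and 2, against 92.0 and 87.7 CPM in sham. Sham levels of Mrpl44 were close in the sets, so that the sets parted in the MI libraries. Mrps22 (-1.14, SE 0.16) stood at 22.7 to 28.3 CPM in MI and 42.4 to 44.9 CPM in sham replicates 3 to 6, and at 7.94 and 8.92 CPM in MI and 30.1 and 30.8 CPM in sham replicates 1 and 2. Mrps14 (-1.05, SE 0.07) stood at 65.8 to 68.9 CPM in MI and 118 to 135 CPM in sham replicates 3 to 6, and at 26.5 and 29.5 CPM in MI and 63.9 and 70.3 CPM in sham replicates 1 and 2.

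Mrps36, the gene that is no part of the ribosome, was at 62.4 to 67.8 CPM in MI and 170.0 to 184 CPM in sham replicates 3 to 6. MI replicates 1 and 2 had 21.8 and 22.1 CPM, against 107 and 114 CPM in sham. Its log2 fold change of -1.74 (SE 0.13) lay inside the range of the ribosomal members. The annotation names 3 pseudogenes of Mrps36, with which its counts may be shared. Mrps30, whose protein sits in the large subunit despite its name, was at -1.38 (SE 0.10).

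The members differed more between MI and sham in replicates 1 and 2 than in replicates 3 to 6. The median log2 fold change was -1.12 in replicates 3 to 6 and -1.72 in replicates 1 and 2. In replicates 3 to 6, 45 members were at least 2-fold lower, as were 14.0% of all tested genes, and in replicates 1 and 2, 71 members and 20.7% of all genes. In 76 of 78 the value was less negative in replicates 3 to 6. Mrpl14 and Mrps21 were the exceptions, by 0.10 and 0.05. Across the 78 genes the fold changes of the sets had r = 0.73 and rho = 0.73, where all 13654 genes of the 12-library fit had r = 0.78 and rho = 0.80; the libraries differ but the member choice is shared. The interaction of set and group, again a measure of the contrast that chose the members, was called in 15 members, each with the value less negative in replicates 3 to 6. Over all genes 6.67% were called with the MI effect higher in replicates 3 to 6 and 3.86% with it lower. The 12-library test alone called 64 members, where it called 55.0% of all genes. The count of 15 rests on the libraries of replicates 1 and 2. It was 0 without sham replicate 1 or without sham replicate 2, 32 without MI replicate 1 and 33 without MI replicate 2.

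The widest gap between the sets was that of Mrpl15, a large-subunit protein with bacterial kin, named after its values were seen. It was at 87.5, 88.9, 92.1 and 91.4 CPM in MI replicates 3 to 6, against 173, 146, 165 and 166 CPM in sham. MI replicates 1 and 2 had 28.0 and 27.5 CPM, against 143 and 159 CPM in sham. The sham libraries of the sets overlapped, and the MI libraries did not. The log2 fold change was -0.85 in replicates 3 to 6 and -2.45 in replicates 1 and 2.

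**Figure D3:**
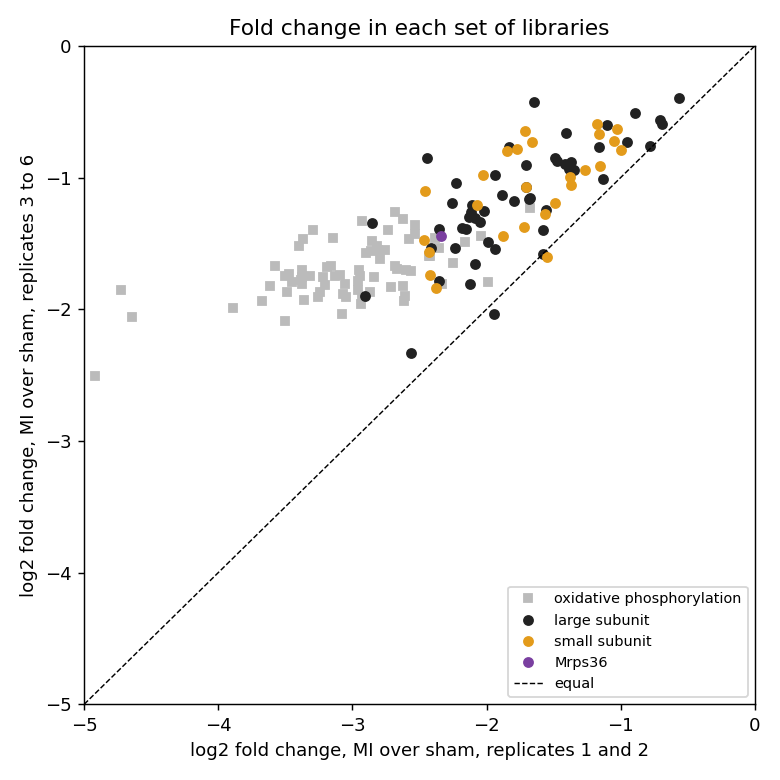
Log2 fold change of MI over sham in replicates 1 and 2 (horizontal) and in replicates 3 to 6 (vertical) for the members and, as grey squares, for 74 nuclear subunits of oxidative phosphorylation; the dashed line marks equal values. Of 78 members, 76 lie above the line, and the grey squares lie farther from 0 in replicates 1 and 2 (median -2.95) than in replicates 3 to 6 (median -1.74).

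Markers of heart muscle cells moved the same way as the members. All 12 listed, among them Myh6 and Tnni3, were called lower, with a median log2 fold change of -1.95 in replicates 3 to 6 and -4.00 in replicates 1 and 2. Their summed level was 35836 to 36544 CPM in MI and 119695 to 122420 CPM in sham replicates 3 to 6, and 7609 and 11696 CPM in MI and 131390 and 135257 CPM in sham replicates 1 and 2, with none of the 12 at 0 in any library. Fibroblast markers were called higher in 7 of 8, and summed to 27724 to 28005 CPM in MI and 3023 to 3177 CPM in sham replicates 3 to 6. In replicates 1 and 2 they summed to 73816 and 58173 CPM in MI and 3256 and 3658 CPM in sham. Macrophage markers (8 of 8) and markers of dividing cells (8 of 8) were called higher as well. Endothelial markers were called lower in 4 of 8 and higher in 0. They summed to 1784 ± 15.1 CPM in MI and 3051 ± 36.2 CPM in sham replicates 3 to 6 (SD, n = 4 each), and to 725 ± 38.9 CPM in MI and 1595 ± 171 CPM in sham replicates 1 and 2 (SD, n = 2 each). The lower sum in MI replicates 3 to 6 came from Fabp4, at a mean of 694 CPM in MI and 2126 CPM in sham. The median log2 fold change of the 8 endothelial markers was 0.001 in replicates 3 to 6 and -0.84 in replicates 1 and 2. The part of these shifts in the members' values was not tested.

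The nuclear subunits of oxidative phosphorylation, the enzyme complexes that the mitochondrial ribosome serves, were lower after MI as well. Of the 74 listed, 74 were called lower, with a median log2 fold change of -2.14, next to -1.34 for the members. Members summed to 13.7 to 13.9% of the CPM of these subunits in MI replicates 3 to 6, against 9.94 to 10.1% in sham. The percentage in replicates 1 and 2 was 22.1 and 24.6 in MI, against 9.27 and 9.63 in sham. The mitochondrial ribosomal transcripts thus made up more, relative to those subunits, in every MI library than in any sham library. Proteins of the cytosolic ribosome had a median of -0.08, with 1 of 81 tested called lower and 2 higher. That median was -0.34 in replicates 3 to 6 and 0.48 in replicates 1 and 2. Members summed to 8.79 to 8.85% of the cytosolic ribosomal CPM in MI replicates 3 to 6, against 16.2 to 16.5% in sham, and to 5.24 and 5.69% in MI replicates 1 and 2, against 26.8 and 26.3% in sham.

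**Figure D4:**
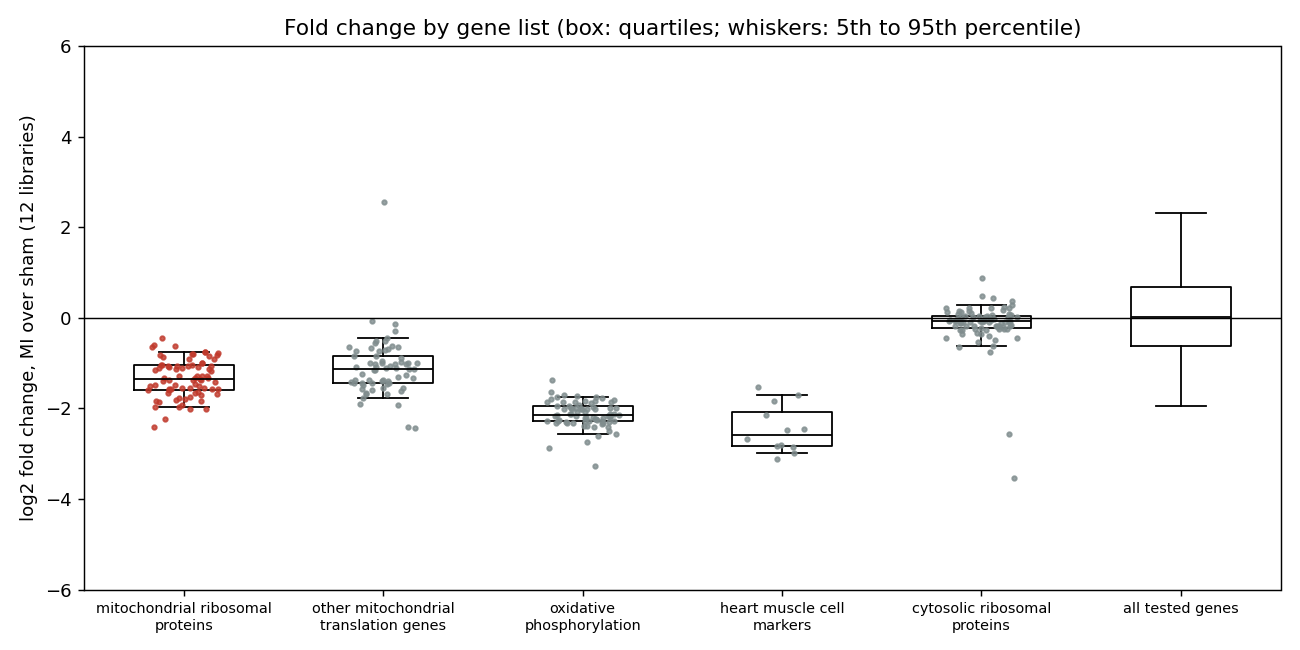
Log2 fold change of MI over sham (12 libraries) for the members, 4 other gene lists and all tested genes; points are genes, boxes the quartiles, whiskers the 5th and 95th percentiles. Medians are -1.34 for the members, -1.12 for other mitochondrial translation genes, -2.14 for oxidative phosphorylation, -2.58 for heart muscle cell markers, -0.08 for cytosolic ribosomal proteins and 0.01 for all genes.

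Other genes listed for mitochondrial translation and the steps around it, which the choice by symbol left out, were lower in most cases. Of 66 tested, 61 were called lower, 1 higher and 4 neither, and the median log2 fold change was -1.12. Ribosomal proteins that carry other names were lower in 5 of 5. Dap3, a GTP-binding protein of the small subunit, was at 63.4 to 68.6 CPM in MI and 159 to 166 CPM in sham replicates 3 to 6, and at 45.1 and 35.8 CPM in MI and 150.1 and 137 CPM in sham replicates 1 and 2. Its log2 fold change was -1.49 (SE 0.09; edgeR adjusted p = 4.17e-08 over 12 libraries and 0.00139 for 3 against 3). Gadd45gip1 was at -1.38, Chchd1 at -1.13 and Aurkaip1 at -1.08. Ptcd3, of the small subunit, was at 92.8 to 98.9 CPM in MI and 137 to 149 CPM in sham replicates 3 to 6. MI replicates 1 and 2 had 21.9 and 22.5 CPM, against 183 and 195 CPM in sham, which gave -0.58 in replicates 3 to 6 and -3.09 in replicates 1 and 2.

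Of 12 tested translation and release factors 10 were called lower. Tufm, the elongation factor that brings aminoacyl-tRNA, had the lowest value (-1.93, SE 0.21; edgeR adjusted p = 4.16e-06 and 0.00239). It was at 98.5 to 104 CPM in MI and 271 to 282 CPM in sham replicates 3 to 6, and at 60.6 and 58.2 CPM in MI and 441 and 433 CPM in sham replicates 1 and 2. Its exchange factor Tsfm was at -1.77 (SE 0.11). The elongation factor Gfm1, which moves the ribosome along, was at -1.69 (SE 0.26), with -1.10 in replicates 3 to 6 and -2.90 in replicates 1 and 2. The initiation factors Mtif2 and Mtif3 were both at -0.99 (-0.68 and -0.73 in replicates 3 to 6, -1.62 and -1.49 in replicates 1 and 2), and the recycling factor Mrrf at -1.16. Pde12, which trims mitochondrial poly(A) tails, had the highest value of the list, -0.14 (SE 0.09; edgeR adjusted p = 0.158 and 0.168), and was not called.

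On the list for ribosome assembly and ribosomal RNA modification 29 of 29 genes were called lower, with a median of -1.10. The list ran from Lyrm7 at -2.43 to Dhx30 at -0.45. Lyrm7 is known for its part in maturing respiratory complex III, so the low end of that range is not one of ribosome assembly. Ndufab1, at -2.42, is also a subunit of complex I, and Dhx30 is an RNA helicase. A list for mitochondrial transcription and RNA stability also held genes of mitochondrial DNA replication, such as Polg and Twnk, and of membrane insertion, such as Oxa1l and Cox18. Of its 21 genes 18 were called lower and 1 higher. Polrmt, the mitochondrial RNA polymerase, was at -0.85 in replicates 3 to 6 and -1.98 in replicates 1 and 2. Tfam, which packages mitochondrial DNA and starts its transcription, was at -0.87 and -1.31. Lrpprc, which stabilises mitochondrial messenger RNA, was at -0.81 in replicates 3 to 6 and -2.59 in replicates 1 and 2, and Oxa1l, which inserts the new proteins into the inner membrane, at -0.70 and -1.67. Taco1, a translational activator, had the lowest value of that list, -1.90, with -1.29 in replicates 3 to 6 and -3.14 in replicates 1 and 2. Mss51, a gene known from skeletal muscle, was the one called higher (2.55, SE 0.44; edgeR adjusted p = 2.04e-04 and 0.00855). It was at 0.968 to 2.46 CPM in MI and 0.239 to 0.702 CPM in sham replicates 3 to 6, and at 1.93 and 1.57 CPM in MI and 0.0761 and 0.0741 CPM in sham replicates 1 and 2, so its fold rests on very few sham counts. It was not called by limma on log2 FPKM.

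Neighbours that start beside members did not share their direction as a group. Of 22 tested partners 7 were called lower, 3 higher and 12 neither, where 29.8% of all tested genes were called lower and 28.1% higher. The median log2 fold change of the partners was -0.01. Adjusted p-values given for these partners are those over 12 libraries. Among those lower were Ptcd2 beside Mrps27 (-1.65, SE 0.10; edgeR adjusted p = 2.40e-08), a mitochondrial RNA-binding protein, and Sars2 beside Mrps12 (-1.24, SE 0.15; edgeR adjusted p = 1.17e-05), the mitochondrial seryl-tRNA synthetase. Ndufs6, a subunit of complex I beside Mrpl36, had the lowest value (-2.29, SE 0.26; edgeR adjusted p = 6.79e-06). The 3 called higher were Ska3 beside Mrpl57 (1.24, SE 0.16; edgeR adjusted p = 1.43e-05), which works at the kinetochore of dividing cells, Mitd1 beside Mrpl30 (1.20, SE 0.25; edgeR adjusted p = 8.26e-04), and Wdfy1 beside Mrpl44 (0.88, SE 0.09; edgeR adjusted p = 3.00e-06). Mrpl30 itself was at 132, 127, 132 and 136 CPM in MI replicates 3 to 6, against 459, 467, 467 and 458 CPM in sham, and at 41.3 and 37.1 CPM in MI replicates 1 and 2, against 159 and 182 CPM in sham. The stretch of 65 bases between the starts of Mrpl30 and Mitd1, printed above, thus parts genes with log2 fold changes of -1.91 and 1.20.

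**Figure D5:**
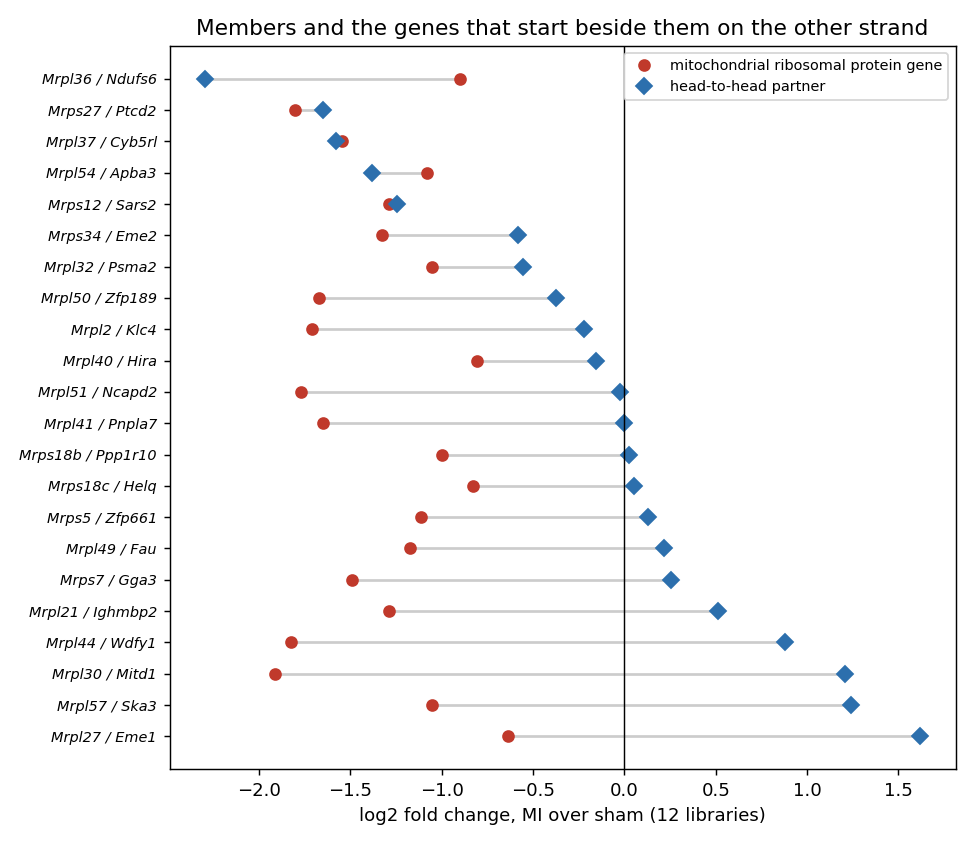
Log2 fold change of MI over sham (12 libraries) for 22 members (circles) and the tested gene that starts beside each on the other strand (diamonds), ordered by the partner's value. All circles lie below 0, while the diamonds run from -2.29 for Ndufs6 to 1.62 for Eme1, which was not called because the 3 against 3 test did not pass.

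Promoter windows, from 250 bases before to 50 bases after each start, were matched for 69 of 78 members, giving 75 windows. The ETS core CCGGAAG, on either strand, was present in 34.7% of member windows, in 15.9% of windows of all tested genes and in 8.86% of all 32851 windows. The NRF1 core GCATGCGC was present in 10.7%, 4.74% and 2.71%, and the YY1 motif AAGATGGCG in 10.7%, 2.65% and 1.40%. The shares were closer for AAGGTCA, bound by estrogen-related receptors (5.33%, 3.25% and 4.72%), for the GC box GGGCGG (52.0%, 59.95% and 35.7%), for TGACGTCA, the cyclic AMP element (2.67%, 2.77% and 1.79%), and for TATAAA (6.67%, 7.67% and 13.6%). None of the 7 motifs contains another, and sites that overlapped in part were kept. Member windows had a median GC content of 58.7%, against 52.7% over all windows. The 26 members with an ETS core had a median log2 fold change of -1.29 and the 43 without one -1.38. For the NRF1 core it was -1.05 in 8 members with it and -1.38 in 61 without, and for the YY1 motif -1.53 in 8 with it and -1.33 in 61 without. The GC box gave -1.23 (34 with) and -1.38 (35 without), TATAAA -1.56 (5 with) and -1.33 (64 without), AAGGTCA -1.48 (4 with) and -1.33 (65 without), and TGACGTCA -1.41 (2 with) and -1.34 (67 without). The ETS core in the Mrps27 stretch lies 48 bases before its start and that of Mrpl52 at 47, in genes with log2 fold changes of -1.80 and -0.45.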

How the data were processed

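Expected counts for 12 libraries and 18050 genes were deposited by the authors without scaling, next to FPKM (per length and fragment total) and TPM (scaled to a common total). Per the submitters' processing notes, Bowtie2, RSEM and DESeq2 were used for replicates 3 to 6, no tool is named for replicates 1 and 2, and the build is GRCm38. Tool versions and strandedness are not given in the sources used here. The deposited expected counts were rounded and tested in edgeR 4.0.16 (TMM, filterByExpr, quasi-likelihood F test) in R 4.3.3, with set as covariate, and again with replicates 3 to 6 summed per group. Genes passed at an adjusted p under 0.05 in both tests. The adjustment was made within each test, over 13654 genes for 12 libraries and 13970 genes for 3 against 3. Both tests held 13592 genes. Standard errors are the log2 fold change over the square root of F in the 12-library fit, which counts replicates 3 to 6 as separate libraries. In the 3 against 3 fit they were 0.14 for Mrpl55 and 0.13 for Mrpl52, next to 0.07 and 0.08. The deposited FPKM served to compare genes, and TPM was not used. The tests were tested on simulated data. Promoters were taken from RefSeq, and gene starts and exon overlap from GENCODE, both on GRCm38.

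The members, the 25 gene lists (330 entries, 325 in the table, 3 by synonym) and the rule that a gene must pass both tests were chosen with earlier results of these data known. Named members are the 10 highest in sham FPKM, the 6 lowest and 6 highest fold changes, and the stalk, S18, cardiomyopathy, Mrps36 and Mrps30 genes. Named pathway genes were 15 listed ones and the lowest and highest of each list. Alternatives covered scaling, filter, test, threshold, covariate, replicate block and leaving out each library. Same-numbered libraries of the groups gave no sign of pairing, in a check that could hardly have shown it, and the groups were compared unpaired.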

Additional observations from a re-analysis of the deposited data

Results flagged for a closer look

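In 15 members the difference between MI and sham was called to differ between the sets of libraries, with the log2 fold change less negative in replicates 3 to 6 than in replicates 1 and 2. The difference was 1.59 for Mrpl15, 1.51 for Mrpl12, 1.35 for Mrps31, 1.22 for Mrpl35 and 1.19 for Mrpl1. It was 1.07 for Mrps18b, 1.07 for Mrpl37, 1.05 for Mrps22, 1.00 for Mrpl42 and 0.99 for Mrps5. It was 0.96 for Mrpl2, 0.93 for Mrps2, 0.89 for Mrps36, 0.88 for Mrpl44 and 0.86 for Mrps28. The interaction comes from the contrast that chose the members. Over all genes 6.67% were called in this direction and 3.86% in the other. The count of members was 0 without sham replicate 1 or without sham replicate 2. Heart muscle cell markers differed between the sets in the same direction, by a median of 2.18, as did oxidative phosphorylation subunits, by 1.30. A check for outlying libraries covered the CPM of the 29 named members and the summed CPM of all members and of each subunit. With the ratio of the subunits it held 66 groups, and no library was flagged against the other 5 of its group. Each group pooled both sets, which often differed in level, so that libraries of 1 set could mask each other. The check thus could not show that no library stood apart. Other measures were not examined in that way. Red-cell markers summed to 9332 CPM in MI replicate 1, against 1002 CPM in MI replicate 2. MI replicates 3 to 6 summed to 1356 to 1428 CPM, which cannot be set beside these. Of the beta-globin copies the list holds only Hbb-bs and Hbb-bt, with 0.115% of beta-globin counts in MI replicates 3 to 6.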

How the results depend on the processing

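The fold change of all 78 members was negative under every alternative tried, and none was reversed. The median over 12 libraries was -0.93 with library size alone, -1.31 with no filter, -0.93 and -0.95 with limma on log2 FPKM plus 1 and plus 0.1, -1.27 without the set covariate, -1.53 for 3 against 3, -1.07 in a fit of replicates 3 to 6 only and -1.74 in a fit of replicates 1 and 2 only, the last pair of fits chosen after seeing the data. Within replicates 3 to 6 it was -1.09 with DESeq2 size factors and with the DESeq2 test, -0.72 with library size, -1.06 with no filter, -0.72 and -0.73 with limma, and -1.16 for 3 against 3. Within replicates 1 and 2 it was -1.75 with DESeq2 size factors and with the DESeq2 test, -1.28 with library size, -1.74 with no filter, and -1.27 and -1.31 with limma. For the large subunit the median was -0.97 with library size, -1.35 with no filter, -0.97 and -0.98 with limma, -1.30 without the covariate, -1.60 for 3 against 3, and -1.12 and -1.85 in replicates 3 to 6 and 1 and 2 only. For the small subunit it was -0.81 with library size, -0.80 and -0.81 with limma, -1.47 for 3 against 3, and -0.98 and -1.70 in those sets only. Members called lower came to 74 with library size and with both limma fits, 77 at an adjusted p under 0.01 and 61 without the covariate. The count of 15 for the difference between sets was 8 with no filter, 24 with DESeq2, 0 at an adjusted p under 0.01 (edgeR) and 64 by the 12-library test alone. Leaving out 1 library gave 76 to 78 members lower, medians of -1.38 to -1.25 over 12 libraries, -1.16 to -1.08 in replicates 3 to 6 and -1.79 to -1.69 in replicates 1 and 2, 0 to 33 members differing between sets, -1.43 to -1.29 for the large and -1.25 to -1.14 for the small subunit, and 54 to 61 other pathway genes lower. The count of 1 other pathway gene called higher, Mss51, was 0 under both limma fits. Scaling by library size alone moved the share of lower calls over all genes to 28.3%, from 51.5%, and limma to 30.6% and 30.5%. All genes called lower and higher numbered 4055 and 3823, and 2216 and 2305 without the covariate. Same-numbered libraries gave no sign of pairing: correlations of their deviations from the mean of their group and set ran from -0.04 to 0.05. Replicates 1 and 2 give the same value by construction, and replicates 3 to 6 lie close together, so this check could hardly have shown pairing. With the replicate block 78 members were lower and 22 differed between sets. Beyond scaling and the libraries left out, the cause of these shifts was not tested. Without the set covariate no value per set could be had.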
